A study of Rattus norvegicus with 8 samples.

Results

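The lineage effect of the fungicide vinclozolin was described in the ventral prostate epithelium of young rats. The members were chosen by title: the 2 arrays titled vinclozolin epithelium of generation F3 and the 2 titled control epithelium, which make 4 of the 8 arrays of the series. All 31042 non-control probe sets of the 31099 on the array were considered. Both groups came from Sprague-Dawley males of generation F3, aged 45 days, whose ancestor dams had been injected intraperitoneally on gestation days 8 to 14. The vinclozolin lineage and the control lineage are told apart by the sample titles alone, because the labelled protocol names the vehicle DMSO for every sample and states no dose of vinclozolin. Each array measured RNA pooled from the epithelium of 11 animals. Nothing in the labels says that the 2 pools of a group hold different animals. The tests therefore measure the spread between arrays of a group, which may be technical. The other 4 arrays are of whole ventral prostate at 180 days from both lineages. They entered the fit, so they share in the spread behind each epithelium standard error and p. Their values otherwise serve here only for comparison.

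The ventral prostate of the rat is a secretory gland whose luminal epithelial cells depend on androgen for growth, survival and the synthesis of the proteins they release into seminal fluid. Basal cells lie beneath the luminal layer, and smooth muscle and fibroblasts surround each duct. Vinclozolin and its breakdown products are antiandrogens, and the animals studied here were descendants of the injected dams that were not exposed directly. At 45 days the rat prostate is still maturing under rising androgen.

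The label of epithelium was compared with markers on all arrays. The values below are deposited intensities, in the arbitrary units of the array. Krt8, a keratin of luminal cells, read 2915.6 and 2916.5 in the control pools and 2815.3 and 2506.3 in the vinclozolin pools, against 1695.5 to 2400.2 in whole prostate. Other luminal markers were not all higher. In the control epithelium arrays Krt18, Pbsn, Epcam and Cdh1 stood at 1.30, 1.03, 0.95 and 0.86 times their level in the control whole prostate arrays. Acta2, the actin of smooth muscle, read 2117.1 and 1788.7 in the control pools and 1743.7 and 1801.5 in the vinclozolin pools, against 118.9 to 183.1 in whole prostate. Tagln, Des, Myh11, Col1a1, Krt5 and Krt14 were likewise at least 3.56 times as high in the control epithelium arrays as in the control whole prostate arrays. The arrays labelled epithelium thus carried smooth muscle, matrix and basal cell transcripts as well as luminal ones. Adipoq, a hormone of fat cells, was low in them, at 12.0 to 33.5 against 279.8 to 325.8, and so was Fabp4. Age and preparation changed together between the 2 kinds of sample and cannot be told apart.

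The epithelium arrays also differed in transcripts of spermatids, the haploid germ cells of the testis. Prm1, which encodes the protamine that packs sperm DNA, read 45.6 and 385.9 in control pools 1 and 2 and 514.1 and 2554.8 in vinclozolin pools 1 and 2, while no whole prostate array exceeded 14.8. Tnp1, a transition protein that precedes the protamines, read 4.8 and 128.1 in the control pools and 145.1 and 623.6 in the vinclozolin pools. Control pool 2 and vinclozolin pool 1 were close to each other for both genes, with control pool 1 far below and vinclozolin pool 2 far above. A list of 26 spermatid genes, written after these values had been seen, summed to 276.1 and 1231.9 in the control pools and to 1438.1 and 5738.7 in the vinclozolin pools, against 165.6 to 254.0 in whole prostate. Of the 26 genes, 21 were highest in vinclozolin pool 2 and 20 were lowest in control pool 1. The summed intensity of 4 genes of somatic testis cells, Insl3, Amh, Cyp11a1 and Star, lay between 24.5 and 68.9 in the epithelium arrays and between 37.5 and 73.1 in whole prostate.

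**Figure D1:**
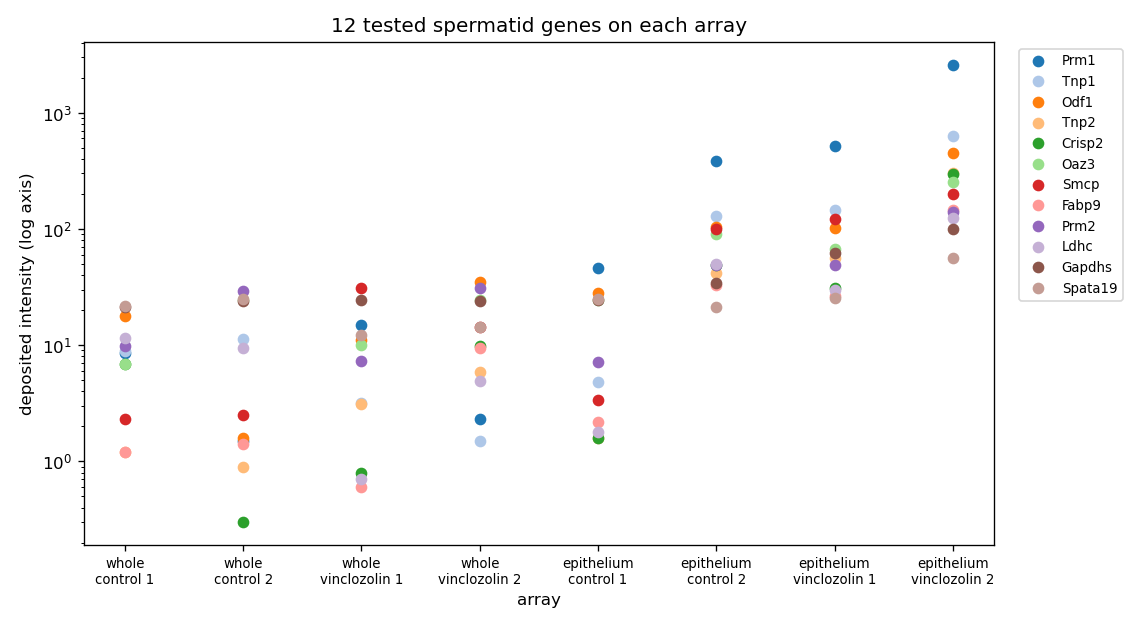
Deposited intensity (log axis) of the 12 spermatid genes that entered the test, on each of the 8 arrays, with 1 colour per gene. Prm1 runs from 45.6 in epithelium control pool 1 to 2554.8 in epithelium vinclozolin pool 2, and the pools between these lie close together.

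Spermatid genes gave 4 of the 6 largest positive changes of the comparison, and none of them passed its test. All changes below are on the log2(intensity + 16) scale, given as vinclozolin minus control, with 2 arrays in each group. Each ± is the fitted standard error, from a spread estimated over the epithelium and whole prostate arrays together. Prm1 measured 2.94 ± 1.04 (adjusted p = 0.38, limma). Tnp1 measured 2.60 ± 0.96, Tnp2 2.25 ± 0.79 and Smcp, a sperm mitochondrial protein, 1.90 ± 0.77. Without control pool 1 the change of Prm1 was 1.52, and without vinclozolin pool 2 it was 1.85. Without control pool 2 it was 4.38. Fam229b, which was among the 6 largest positive changes by the same rule, read 6.0 and 35.7 in the control pools and 49.3 and 222.6 in the vinclozolin pools. The part that germ cell transcripts have in any other value was not tested.

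**Figure D2:**
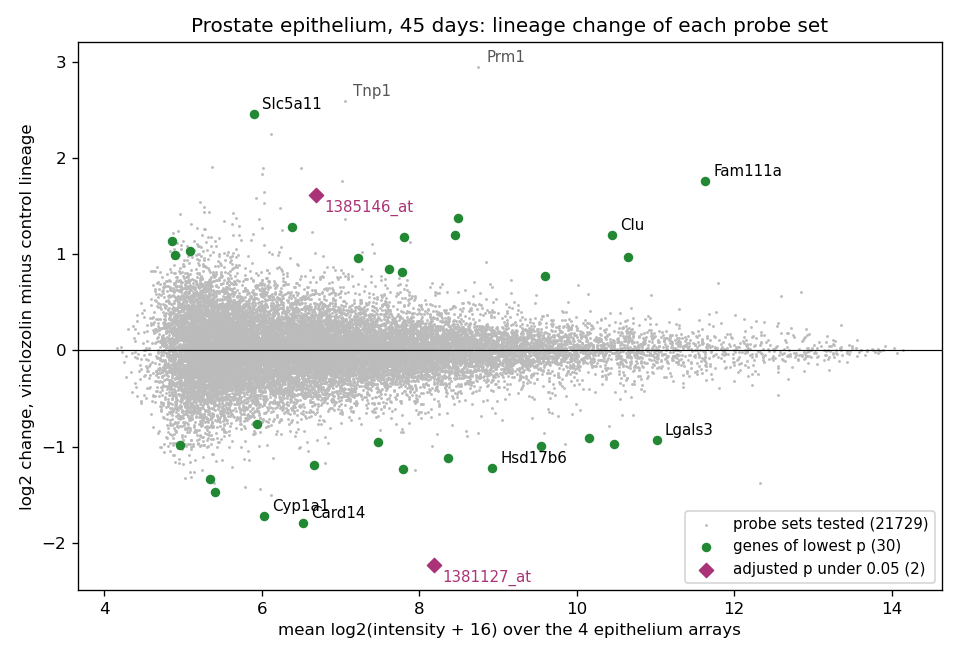
Log2 change (vinclozolin minus control lineage) against the mean log2(intensity + 16) of the 4 epithelium arrays for the 21729 probe sets tested. The 2 probe sets past the test and the 30 genes of lowest p are marked, and Prm1 and Tnp1 lie above them all in change.

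Of 21729 probe sets tested, 2 (0.0092%) were called at an adjusted p under 0.05 in limma's fit, 1 higher and 1 lower (0.0046% each), and neither has a gene symbol in the annotation used. Probe set 1385146_at rose 3.07-fold, from 43.8 and 45.3 in the control pools to 154.1 and 162.5 in the vinclozolin pools. Its change stayed between 1.60 and 1.67 with each pool left out in turn. Probe set 1381127_at fell 4.70-fold, from 585.6 and 615.6 to 128.7 and 113.9, with a range of -2.33 to -2.16. Both were lost as calls when any array was left out. At an adjusted p under 0.10 there were 9 probe sets (0.0414%), 6 higher (0.0276%) and 3 lower (0.0138%), the others being Fam111a, Trak2, Slc5a11, Fggy, Akr1c13, Hsd17b6 and Zfp212, and at 0.20 there were 64 (0.295%), with 32 in each direction (0.147%). Without adjustment, 1215 (5.59%) were higher and 1256 (5.78%) lower at a p under 0.05. Of these, 79 (0.364%) were at least 2-fold higher and 52 (0.239%) at least 2-fold lower. Below, "nominal" means an unadjusted p under 0.05 without passing the adjusted test. The median absolute change over all probe sets was 0.17, about the size of its median standard error, also 0.17. A change that missed the threshold is not thereby shown to be absent.

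The 30 genes of lowest p, 15 in each direction, had intensities that did not overlap between the groups, which their selection required. None passed at an adjusted p under 0.05. In 22 of them both arrays of the higher group read above 100. With 1 epithelium array left out, 116 of 116 values for these genes kept their sign, and none moved by more than 0.30. The kept sign follows from groups that do not overlap, and a low p favours a small spread. Neither result is therefore independent of the selection. The remaining 4 values could not be had because the probe set then fell below the filter on low intensities.

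Among those higher in the vinclozolin lineage, several encode proteins of transport and of small-molecule metabolism. Slc5a11, a sodium-coupled inositol transporter, read 10.7 and 8.9 in the control pools and 113.8 and 129.6 in the vinclozolin pools, a change of 2.45 ± 0.22 (adjusted p = 0.063). Its control values lay at the floor of the array and its vinclozolin values well above it. Fggy, a carbohydrate kinase, read 223.7 and 213.8 against 476.8 and 544.1, a change of 1.20 ± 0.11. Akr1c13, of the aldo-keto reductases that act on steroids and other carbonyls, read 35.3 and 42.5 against 104.8 and 118.8. Adh1c, an alcohol dehydrogenase, read 134.4 and 133.8 against 302.2 and 328.2, so that its groups stood 2.27-fold apart. Only the brighter of the 2 Adh1c probe sets did so, since the other measured -0.18 ± 0.31. Car2, a carbonic anhydrase that makes bicarbonate and protons from carbon dioxide, read 592.4 and 567.3 against 996.9 and 998.8. Its second probe set went the same way, at 0.92 ± 0.15 after 0.77 ± 0.11 for the first.

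Other genes of the higher side have roles in trafficking, signalling and the nucleus. Fam111a, a nuclear protease that takes part in DNA replication, read 1583.4 and 1853.7 in the control pools and 5750.0 and 5833.0 in the vinclozolin pools, 3.40-fold apart. Its change lay between 1.64 and 1.86 with each pool left out. Trak2, which links mitochondria to the motors of microtubules, read 195.3 and 224.2 against 560.3 and 555.8, yet its other probe set measured 0.14 ± 0.18. Gna14, a G protein subunit of the Gq family, measured 0.82 ± 0.11 on 1 probe set and 0.58 ± 0.19 on the other. Msh3, of DNA mismatch repair, read 126.3 and 137.0 against 241.7 and 244.5. LOC102552398, an uncharacterised locus, read 1128.5 and 1097.8 against 2306.9 and 2222.3. Dlg4, Scel and Ddr2 were also among the 15, and their control arrays all read under 10, so those 3 changes rest on the low end of the scale. The other 2 probe sets of Ddr2, at 50.8 to 112.1 units, measured 0.16 and 0.09. The other probe set of Dlg4, which is the brighter, went the other way at -0.38 ± 0.26 and was not nominal.

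The lower side was led by an enzyme of androgen metabolism. Hsd17b6, which can turn weak androstane metabolites back into potent androgens, read 758.8 and 687.0 in the control pools and 306.2 and 300.6 in the vinclozolin pools, 2.33-fold lower (adjusted p = 0.067 in limma's fit). The vinclozolin values were almost equal, and its change lay between -1.30 and -1.14 with each pool left out. Lgals3, the sugar-binding protein galectin 3, read 2838.5 and 2893.8 against 1480.7 and 1455.9. Ggact, an enzyme that degrades crosslinks formed by transglutaminases, read 2031.2 and 1994.9 against 1045.8 and 926.7. The second probe set of Ggact went the other way, at 0.98 ± 0.33, from intensities of 6.8 and 24.5 in the control pools. Rasd1, a small G protein induced by glucocorticoids, read 1491.3 and 1724.1 against 819.4 and 770.6. Arrdc2, an arrestin-like protein, read 467.2 and 463.1 against 239.7 and 183.4.

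Several lower genes encode regulators of signalling or chromatin. Card14, a scaffold that activates NF-kappaB in epithelia, read 127.8 and 169.9 against 33.3 and 38.3, a change of -1.79 ± 0.21. Setd1b, a histone methyltransferase, read 241.4 and 214.3 against 109.7 and 120.3. Zfp212, a zinc finger protein, was lower on both of its probe sets, at -1.47 ± 0.15 and -0.66 ± 0.15. The second of these is the brighter, with 303.9 and 294.8 in the control pools against 190.1 and 185.7. Probe sets disagreed for Cc2d1a (-1.34 and -0.13), Plekhh1 (-1.19 and 0.04) and Emsy (-0.76, -0.47 and 0.39). Nckap1l, an actin regulator of blood cells, was lower on both probe sets but never exceeded 29.3 units. Rps4x-ps1 is annotated as a pseudogene and measured -1.24 ± 0.15. Signal from its parent gene was not examined, so its identity is uncertain.

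**Figure D3:**
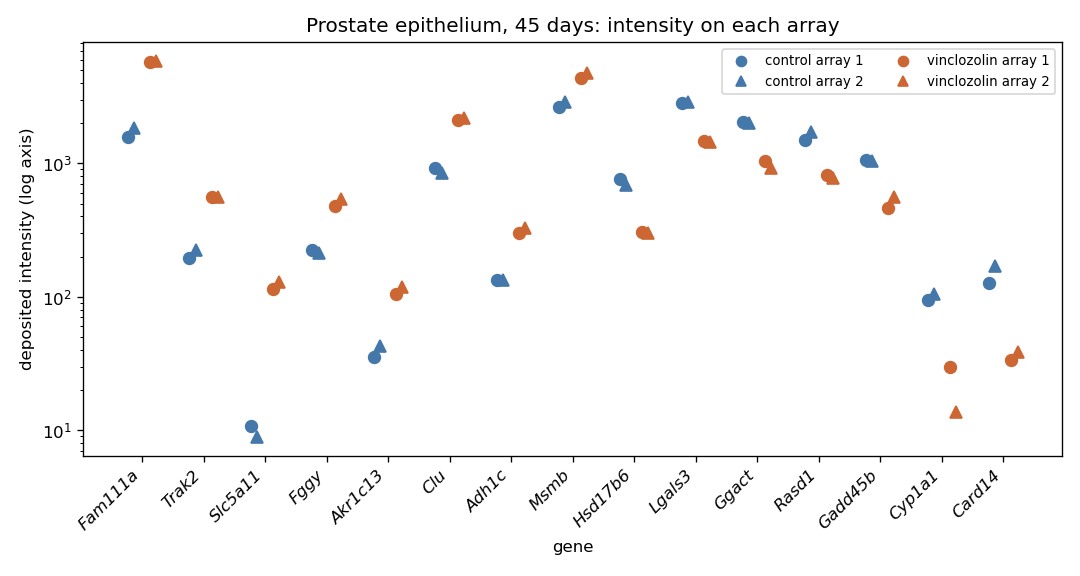
Deposited intensity (log axis) on each epithelium array for 15 genes of the text, with control pools in blue and vinclozolin pools in orange. Both pools of a group lie on the same side for every gene shown. Slc5a11 spans the widest ratio, from 8.9 and 10.7 to 113.8 and 129.6.

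Gene groups were then described with 48 lists, 35 of pathways and functions and 13 of cell types, on the brightest tested probe set of each gene. Of 11485 genes so represented, 597 (5.2%) were nominally higher and 644 (5.61%) nominally lower, and the median change was -0.0036. The change was positive for 49.3% of them and negative for 50.7%. No member of any list passed the adjusted test, so the counts below are of nominal differences, set against these shares and without a test of the list. Of 185 nominal probe sets named by the rules used here, 35 moved by over 1.5 times when 1 epithelium pool was left out, and 0 turned sign. They were nominal on these same pools, so the kept sign is not independent of their choice.

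**Figure D4:**
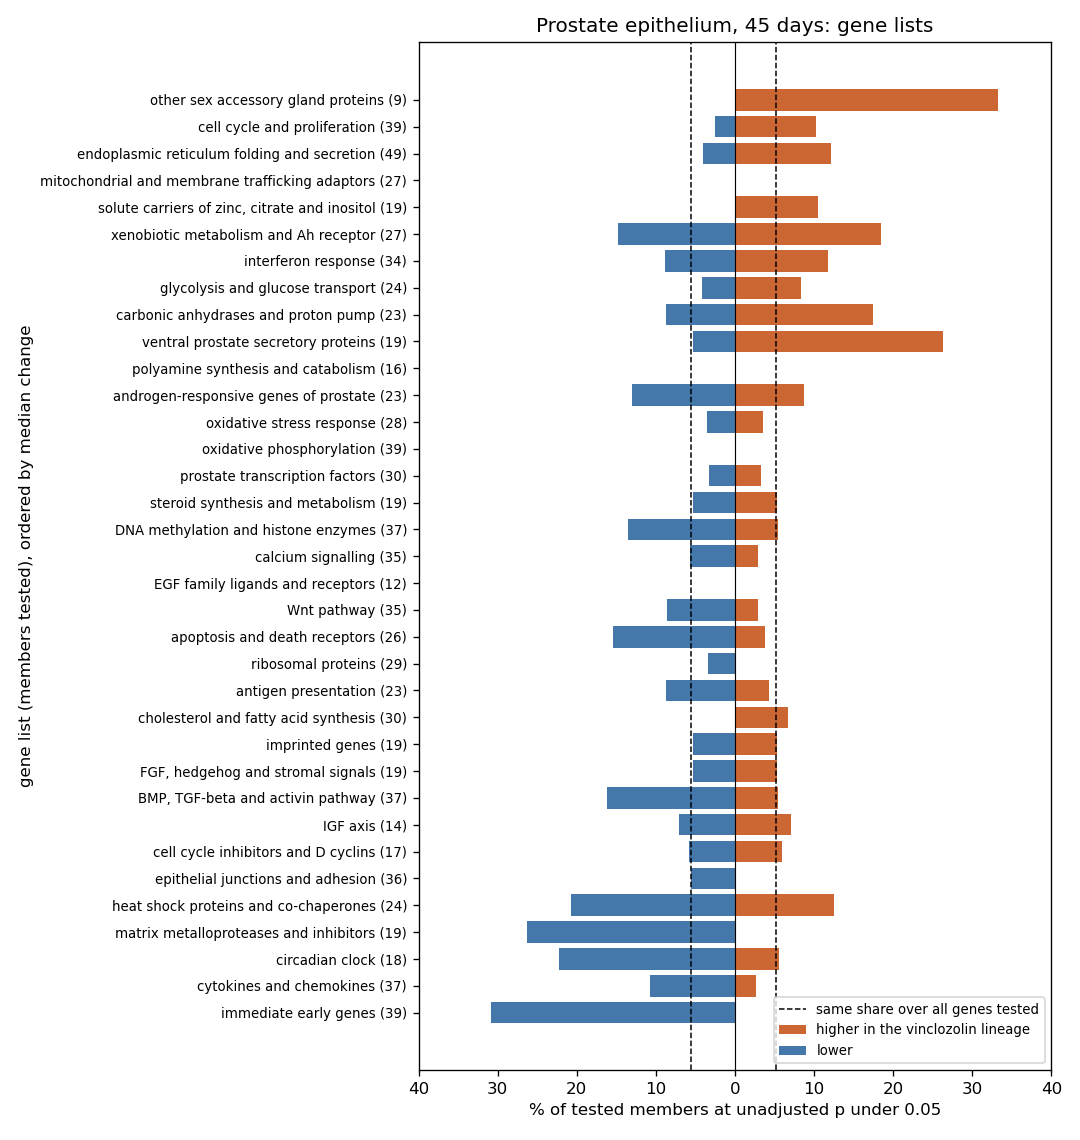
Share of tested members of each of the 35 function lists at an unadjusted p under 0.05, higher to the right and lower to the left, with the same shares over all 11485 genes (5.2% and 5.61%) as dashed lines. The lists are ordered by median change. Immediate early genes, at the bottom, have 30.8% of members to the left and 0 to the right.

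Several secretory proteins of the gland were nominally higher. Of 19 tested genes of ventral prostate secretion, 5 (26.3%) were nominally higher and 1 lower, with a median of 0.02. Msmb, beta-microseminoprotein, read 2663.8 and 2904.9 in the control pools and 4331.8 and 4745.6 in the vinclozolin pools, a change of 0.70 ± 0.11. Clu, a secreted chaperone long known as a transcript of the regressing prostate, read 917.4 and 847.5 against 2104.9 and 2195.3. Klk1c8, a kallikrein protease, read 6418.6 and 5832.5 against 8644.7 and 9090.2. Ceacam1 and Tcn2, a vitamin B12 carrier, were the other nominally higher members, although 2 further probe sets of Ceacam1 measured 0.32 and 0.03. Azgp1, zinc-alpha-2-glycoprotein, went the other way, with 97.5 and 112.2 against 59.6 and 51.5. The count of 5 higher and 1 lower was the same with each pool left out. Pbsn, probasin, the classical androgen-driven product of the rat prostate, measured 0.23 ± 0.11 and was not nominal, and Sbp measured 0.00 ± 0.13 (the deposited values being 16264.0 and 14743.0 against 15105.0 and 13321.0).

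Products of other sex accessory glands were nominally higher for 3 of 9 tested genes and lower for 0, with a median of 0.22. Semg1, a protein of the seminal clot, read 5359.6 and 4991.2 in the control pools and 7476.8 and 7319.2 in the vinclozolin pools. Svs4 read 133.6 and 141.5 against 196.4 and 228.6, and Wfdc5, a protease inhibitor, 97.7 and 67.8 against 162.9 and 143.1. All 3 had their groups apart, and without any 1 pool the count was 3 or 4.

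Other androgen targets did not share 1 direction. Of 23 androgen-responsive genes, 2 were nominally higher and 3 lower, with a median of 0.0038. Eaf2, an androgen-induced partner of elongation factors, read 2015.0 and 2210.2 in the control pools and 1330.3 and 1287.8 in the vinclozolin pools. Acsl3, which activates fatty acids, read 327.5 and 383.5 against 503.5 and 485.8, and Abhd2 340.5 and 295.9 against 371.6 and 405.0. Ndrg1, a gene induced by androgen and by low oxygen, measured -0.55 ± 0.17. Among 19 genes of steroid synthesis and metabolism, Akr1c13 was the 1 nominally higher and Hsd17b6 the 1 nominally lower.

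Immediate early genes, which cells switch on within minutes of a stimulus, gave the largest share of nominally lower members. The list summed to 69187 and 73850 in the control pools and to 60870 and 61447 in the vinclozolin pools. On the whole prostate arrays it summed to between 15614 and 16259. Why its level was higher in all epithelium pools was not tested. Of 39 tested, 12 (30.8%) were nominally lower and 0 higher, the median was -0.18, and 23 had their groups apart on the lower side, where 20.4% of all genes lay. Gadd45b, a stress-induced regulator of growth arrest and DNA demethylation, read 1054.6 and 1034.5 in the control pools and 459.8 and 558.8 in the vinclozolin pools, a change of -0.99 ± 0.12 (adjusted p = 0.11 in limma's fit). Its relatives Gadd45a (1774.2 and 1585.5 against 1183.2 and 1201.2) and Gadd45g (5062.6 and 5273.9 against 3965.5 and 4240.0) also read lower in both vinclozolin pools. Among the subunits of the AP-1 transcription factor, Jund read 6951.7 and 7635.5 against 4937.8 and 4966.1 on 1 probe set and measured -0.83 ± 0.25 on its other. Fosl2 measured -0.85 ± 0.18 and Fosb -0.26 ± 0.10. Fos itself measured -0.08 ± 0.12 and Jun -0.12 ± 0.15 on its brightest probe set. The AP-1 genes were thus not all nominally lower.

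Klf4, a zinc finger factor of epithelial differentiation, read 2072.1 and 1839.4 in the control pools and 1402.2 and 1361.4 in the vinclozolin pools. Ier3, which modulates survival under stress, read 3583.3 and 3586.8 against 2858.9 and 2779.4. Csrnp1, the orphan receptor Nr4a2 and Ptgs2, the inducible cyclooxygenase, were also nominally lower. Nr4a1 measured -0.08 ± 0.11 and Dusp1, a phosphatase that ends MAP kinase signals, 0.17 ± 0.12 on its brightest probe set. With each epithelium pool left out, 7 to 9 members were nominally lower and 0 higher, against 4.64% to 5.85% of all genes lower. Some measures of the RNA also separated the groups. The 3'/5' ratio of Gapdh was 1.08 and 1.13 in the control pools and 1.22 and 1.19 in the vinclozolin pools, and the signal of the 5S rRNA probe 548.8 and 542.7 against 459.0 and 479.3. That of beta-actin overlapped, at 2.57 and 2.27 against 2.35 and 2.26. The part of RNA quality in this or any other list was not tested.

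The promoters of these genes were searched because many of them answer to cyclic AMP through the CRE, the octamer TGACGTCA. In the 250 bases before the start of each gene in RefSeq (build GRCr8), this palindrome was found in 4 of the 27 immediate early genes with a promoter in the table (14.8%) and in 1.7% of all 27457 promoters. The genes were Jund, Ier2, Dusp1 and Maff. The promoters of 3 of them are shown 5′ to 3′ on the strand of the gene, with the CRE in capitals, because the same octamer stands before genes of unlike change. It begins at base -221 before Jund (chr16:18769772-18770021, minus strand), at -66 before Ier2 (chr19:40399123-40399372, plus strand) and at -124 before Dusp1 (chr10:17184603-17184852, plus strand).
Jund: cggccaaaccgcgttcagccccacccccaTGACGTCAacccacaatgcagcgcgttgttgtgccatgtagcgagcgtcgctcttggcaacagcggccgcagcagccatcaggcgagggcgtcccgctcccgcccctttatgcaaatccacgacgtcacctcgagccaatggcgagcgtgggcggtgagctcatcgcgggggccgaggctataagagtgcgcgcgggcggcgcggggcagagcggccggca
Ier2: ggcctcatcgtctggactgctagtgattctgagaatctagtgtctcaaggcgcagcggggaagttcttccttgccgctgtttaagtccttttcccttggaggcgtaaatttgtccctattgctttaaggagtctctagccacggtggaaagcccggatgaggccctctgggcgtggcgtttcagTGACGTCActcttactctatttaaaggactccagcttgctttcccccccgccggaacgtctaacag
Dusp1: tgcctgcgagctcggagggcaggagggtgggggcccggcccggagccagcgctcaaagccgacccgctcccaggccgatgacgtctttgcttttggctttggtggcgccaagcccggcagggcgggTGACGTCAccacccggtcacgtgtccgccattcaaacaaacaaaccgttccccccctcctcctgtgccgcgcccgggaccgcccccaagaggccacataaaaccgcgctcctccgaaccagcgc
Jund measured -0.47 ± 0.11, Ier2 -0.18 ± 0.11, Dusp1 0.17 ± 0.12 and Maff -0.46 ± 0.27. A match describes the letters in this window and not a site in use.

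Heat shock proteins and their helpers were nominally lower for 5 of 24 genes and higher for 3, with a median of -0.15. Bag3, a co-chaperone that sends damaged proteins to autophagy, read 1169.0 and 1476.6 in the control pools and 825.0 and 804.5 in the vinclozolin pools. Dnajb1, a partner of Hsp70, read 3039.8 and 2908.8 against 2295.6 and 2255.1 on its brightest probe set, and its second gave -0.05 ± 0.13. Cryab, a small heat shock protein, measured -0.54 ± 0.19. The inducible Hsp70 gene Hspa1a, at 7296.7 and 7498.8 against 7734.5 and 7211.1, overlapped between the groups. Hsf1, the transcription factor of the response, read 56.4 and 63.1 against 86.9 and 97.6. Without each pool the lower count was between 2 and 4 and the higher count 1 or 2.

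Clock genes had 16 of 18 members with a negative change, 4 of them nominal (2 to 5 with each pool left out), and a median of -0.17. Over all genes, 50.7% were negative. Per2, a repressor of the clock, read 299.0 and 274.6 in the control pools and 205.0 and 211.8 in the vinclozolin pools. The repressors Nr1d1 (165.6 and 140.8 against 108.8 and 92.6) and Bhlhe41 (114.1 and 98.8 against 72.4 and 74.9) also did not overlap. Csnk1e measured -0.52 ± 0.17 on its brightest probe set, but 0.50 and 0.00 on the other 2. Clock, which drives the cycle, was the 1 nominally higher, at 0.33 ± 0.12, and without any 1 pool no clock gene was. Bmal1 measured -0.05 ± 0.15 and Dbp -0.02 ± 0.15. The time of day at which tissue was taken is not given in the labels.

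Genes of the cell cycle were mostly measured higher, by small amounts. Of 39 tested, 29 had a positive change, 4 (10.3%) were nominally higher and 1 lower, and the median was 0.21, against 0.24 in whole prostate. The groups stood apart on the higher side for 18 members, where 20.1% of all genes did. Ccnb1, cyclin B1 of mitosis, read 64.7 and 70.1 in the control pools and 101.0 and 119.2 in the vinclozolin pools, and its second probe set measured 0.47 ± 0.15. Ccnb2 read 202.4 and 210.2 against 294.0 and 260.5. Rrm1, which makes deoxynucleotides, read 148.2 and 135.3 against 186.5 and 211.8. The proliferation antigen Mki67 read 185.1 and 199.5 against 201.5 and 266.6, with 0.27 ± 0.25, and Pcna measured 0.00 ± 0.11. Mcm2, of the replicative helicase, went the other way at -0.34 ± 0.14. The count of nominally higher members was 2 without vinclozolin pool 2 and 3 or 4 without any other pool.

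Genes of folding and export from the endoplasmic reticulum were also mostly measured higher, with 41 of 49 positive, against 49.3% of all genes. Of these 49, 6 (12.2%) were nominally higher and 2 lower, and the median was 0.13. The groups stood apart on the higher side for 32 members, where 20.1% of all genes did. Sel1l, of the machinery that returns misfolded proteins to the cytosol, read 329.0 and 302.9 in the control pools and 474.3 and 422.8 in the vinclozolin pools. Lman1, a cargo receptor for glycoproteins, read 437.9 and 535.5 against 685.4 and 627.1. Edem1, Txndc5, Ckap4 and Dnajc3 were the other nominally higher members. Pdia5, a disulphide isomerase, read 1004.8 and 1197.1 against 718.4 and 613.9, and Ddit3, a factor of the stress response, measured -0.35 ± 0.14. Hspa5, the major chaperone of this compartment, measured 0.15 ± 0.10 and Xbp1, which drives its expansion, -0.23 ± 0.11. The higher count was 2 without control pool 2 and 2 without vinclozolin pool 2, and 5 without either of the other pools.

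CCAAT, the box bound by the factor NF-Y, was common before the genes of both of these lists. It was found on either strand in 21 of 32 cell cycle promoters (65.6%) and 29 of 41 endoplasmic reticulum promoters (70.7%), against 34.3% of all 27457. TTTGAA, the CHR of mitotic genes, was found in 9 of the 32 cell cycle promoters (28.1%) and in 16% of all. The promoters of Ccnb1 (chr2:33655226-33655475, minus strand) and Sel1l (chr6:116510362-116510611, minus strand) are shown because these genes had the lowest p of their lists in the direction of the median. Capitals mark CCAAT or its reverse complement ATTGG, which begins at -82 and -50 in Ccnb1 and at -219, -147, -89 and -57 in Sel1l.
Ccnb1: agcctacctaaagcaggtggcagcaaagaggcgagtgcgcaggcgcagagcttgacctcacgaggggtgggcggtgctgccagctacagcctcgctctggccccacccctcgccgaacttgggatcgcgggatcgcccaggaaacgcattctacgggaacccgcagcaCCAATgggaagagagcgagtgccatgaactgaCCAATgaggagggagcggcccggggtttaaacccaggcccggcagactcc
Sel1l: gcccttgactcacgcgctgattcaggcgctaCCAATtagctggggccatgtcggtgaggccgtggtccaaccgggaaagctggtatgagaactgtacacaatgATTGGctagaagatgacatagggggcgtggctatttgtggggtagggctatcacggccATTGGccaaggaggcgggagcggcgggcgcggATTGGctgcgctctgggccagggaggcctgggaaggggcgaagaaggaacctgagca
The members of these lists share such boxes with many genes outside them, and no test was made. No searched motif lies within another.

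Enzymes of xenobiotic metabolism lay on both sides, with 5 of 27 nominally higher and 4 lower and a median of 0.09. Cyp1a1, the cytochrome induced through the aryl hydrocarbon receptor, read 93.9 and 104.1 in the control pools and 30 and 13.7 in the vinclozolin pools, a change of -1.72 ± 0.20 (adjusted p = 0.11 in limma's fit). Nqo1 (70.4 and 56.0 against 35.2 and 33.2) and Tiparp (728.3 and 688.9 against 546.5 and 550.0), which the same receptor can induce, were nominally lower too. Cyp1b1, a further target, measured 0.10 ± 0.24, and the receptor gene Ahr 0.16 ± 0.18. Gstp1, a glutathione transferase, read 337.1 and 388.2 against 544.2 and 638.5, and Gstm6l 142.2 and 155.1 against 211.9 and 193.4. The core letters GCGTG of the receptor's element were found before 10 of 22 of these genes (45.5%), among them Nqo1 and Tiparp, and in 27.2% of all promoters. The share was 43.8% to 55.6% for the immediate early, cell cycle and endoplasmic reticulum lists. Without control pool 1 the count of nominally lower members was 1, and without any other pool 3 or 4, while the higher count ranged from 1 to 4.

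In the BMP and TGF-beta pathway 6 of 37 genes (16.2%) were nominally lower and 2 higher, with a median of -0.10. The ligand Bmp6 read 128.2 and 79.0 in the control pools and 219.6 and 233.4 in the vinclozolin pools on its brighter probe set, and 57.3 and 65.3 against 110.0 and 105.1 on the other. With each pool left out, the first ranged from 0.78 to 1.45 and the second from 0.64 to 0.80. Its receptor Bmpr2 read 210.8 and 207.8 against 360.9 and 306.5. The activin receptor Acvr2a read 166.4 and 186.1 against 104.2 and 131.0 (-0.75 to -0.41 with each pool left out), and the activin antagonist Fst 174.7 and 182.2 against 105.7 and 137.5. Id2 and Id3, targets that hold back differentiation, read 386.8 and 396.3 against 260.0 and 287.8, and 102.7 and 101.6 against 70.4 and 68.4. The inhibitor Smad7 measured -0.45 ± 0.14 on its brightest probe set and 0.07 and -0.03 on its others. Without each pool the lower count was 3 to 5, and the higher count 2 or 3.

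Genes of cell death were nominally lower for 4 of 26 and higher for 1. Bcl2l1, which protects mitochondria from apoptosis, read 127.2 and 99.0 in the control pools and 62.5 and 47.9 in the vinclozolin pools, though its other 2 probe sets measured -0.24 and 0.10. Bcl2l11, which opposes it, read 73.6 and 73.2 against 57.4 and 46.7, but 0.20 ± 0.16 on its other probe set. Fas, the death receptor, read 78.8 and 113.0 against 62.1 and 60.3, a change of -0.58 ± 0.17 (-0.83 to -0.35 with each pool left out), and -0.01 ± 0.31 on a dim second probe set. Casp1, the caspase of inflammation, read 27.6 and 25.0 against 40.9 and 43.9.

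Genes of the immune response gave no common direction. Of 34 interferon response genes, 4 were nominally higher and 3 lower, with a median of 0.08, against 0.83 in whole prostate. With each pool left out, 3 to 7 were higher and 0 to 5 lower. Ifit2 measured 0.96 ± 0.13 and 0.77 ± 0.23 on its 2 probe sets, and the signal transducer Stat2 0.58 ± 0.10 and 0.53 ± 0.17 on its 2. Irf1 (451.2 and 406.9 against 202.4 and 300.0) and Rsad2 (132.3 and 108.7 against 82.2 and 92.0) went the other way. Cytokines and chemokines had 27 of 37 genes negative, 4 nominally lower (1 to 5 with each pool left out) and 1 higher, and a median of -0.17. Icam1, an adhesion molecule for leukocytes, and Nfkbia, the inhibitor of NF-kappaB, were among the lower, at -0.44 ± 0.17 and -0.35 ± 0.12. Of 18 macrophage markers 14 were negative, with a median of -0.15, but only 1 (5.56%) was nominally lower, near the share of all genes, with 1 to 4 over the pools left out. The summed intensity of these 18 genes was 10543 and 9166 in the control pools against 7725 and 7564 in the vinclozolin pools. The defining markers Cd68, Csf1r and C1qa measured -0.12 ± 0.16, -0.05 ± 0.15 and -0.05 ± 0.16. Among 14 tested T and NK cell genes, 3 were nominally lower (0 without control pool 1), while the 14 summed to 395 and 291 against 285 and 298. The defining markers did not share 1 direction, all from low intensities. Cd3e measured -1.09 ± 0.28 (36.2 and 31.6 against 14.3 and 1.3), Cd3g -0.02 ± 0.13 and Cd2 0.45 ± 0.27. In bulk RNA, fewer cells of a type and less RNA per cell cannot be told apart, and the part of leukocytes in these values was not tested.

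Smooth muscle genes were mostly measured lower, and other stromal lists less evenly. They had 14 of 18 negative, 4 nominal, and a median of -0.16, and their summed intensity was 35002 and 37044 in the control pools against 32906 and 33155 in the vinclozolin pools. Des, desmin, read 865.4 and 843.7 against 650.2 and 652.5, and Cnn1, calponin, 1664.2 and 1691.6 against 1382.9 and 1293.8, while Acta2 measured -0.13 ± 0.17. The count of nominally lower members was 1 or 0 without each pool. Matrix proteases and their inhibitors had 11 of 19 negative, 5 nominally lower and 0 higher, with a median of -0.15. Mmp2, gelatinase A, read 495.6 and 423.3 against 303.3 and 367.3, and its activator Mmp14 302.2 and 272.7 against 233.2 and 204.2. Adamts1, Adamts5 and the plasminogen activator Plat were the others, and without each pool only 1 or 2 were nominal. Of 25 fibroblast genes 14 were negative, 2 of them nominal, and the list summed to 17732 and 18044 against 16874 and 16424. Endothelial genes had 11 of 17 positive and 3 nominally higher (1 or 2 without each pool), with Tek at 74.7 and 75.8 against 104.5 and 117.9, but their sums overlapped, at 2119 and 2115 against 2259 and 2055. Luminal markers summed to 38166 and 39262 against 40597 and 40240, although 13 of 19 were negative, with a median of -0.06, and Krt8, Krt18, Cdh1 and Epcam measured between -0.12 and -0.06. The basal markers summed to 5060 and 5133 against 5229 and 5076.

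Several lists had few or no nominal members. Oxidative phosphorylation had 0 of 39 in either direction, with a median of 0.0004. Polyamine enzymes had 0 of 16, although the prostate makes these amines in quantity, and Odc1, the first enzyme of their synthesis, measured 0.10 ± 0.11. Ribosomal protein genes had 1 of 29 lower, and EGF family ligands and receptors 0 of 12. Prostate transcription factors had 1 in each direction of 30. Mt3, a metallothionein that binds zinc, was the 1 nominally higher of 28 oxidative stress genes, at 91.7 and 50.8 in the control pools against 194.9 and 190.2, with a change of 1.01 to 1.74 over the pools left out. In glycolysis, Pgk1 read 549.9 and 590.6 against 873.4 and 842.1 on its brightest probe set, and measured -0.10 ± 0.18 on its other.

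Genes read by more than 1 probe set allow a check of a value within these arrays. Of 3209 genes with at least 2 tested probe sets, 33 (1.03%) were nominally higher on 2 or more with none nominally lower, 42 (1.31%) were the reverse, and 22 had nominal probe sets in both directions. The largest mean changes on the higher side were those of Bmp6, Ifit2, Car2, Gna14, Wnk2, Btrc, Get1 and Stat2. Wnk2, a kinase that regulates ion transport, read 133.0 and 127.5 in the control pools and 192.6 and 201.3 in the vinclozolin pools on its brighter probe set. Get1, which inserts proteins into the membrane of the endoplasmic reticulum, measured 0.71 ± 0.13 and 0.43 ± 0.12. Btrc, a ubiquitin ligase subunit, measured 0.73 and 0.47 on 2 probe sets but 0.08 on its brightest. On the lower side were Cdkl4, Zfp212, Pi16, Alkbh4, Cox11, Nckap1l, Arsb and Fam151b. Pi16 read 126.4 and 161.9 against 93.1 and 111.3 on its brighter probe set, and Arsb, a lysosomal sulphatase, 126.7 and 89.8 against 56.9 and 42.7. The 2 probe sets of Cox11, an assembly factor of cytochrome oxidase, measured -0.78 ± 0.19 and -0.73 ± 0.27, from intensities under 45.

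The lead genes were compared with whole ventral prostate at 180 days, a comparison that has its own control arrays. In that tissue 379 of 21729 probe sets (1.74%) were called. Of the 30 genes of lowest p in epithelium, 19 had the same sign there, and 12 of those were called. Slc5a11 rose there by 2.15 ± 0.22, Clu by 1.00 ± 0.13, Scel by 1.23 ± 0.14 and Gna14 by 1.25 ± 0.11, while Lgals3 fell by 0.95 ± 0.11, Rasd1 by 0.98 ± 0.12 and Setd1b by 1.66 ± 0.12. The difference of effects was not called for any of these 7 genes. Hsd17b6, Cyp1a1, Fggy, Adh1c, Ggact and Gadd45b measured between -0.29 and 0.11 in whole prostate and were not called there. Cyp1a1 read at most 3.4 on the whole prostate arrays, far under the pseudocount, so its value there has no information on the lineage. Of these, the difference of effects was called only for Fggy, at 1.48 ± 0.16 (adjusted p = 0.026 in limma's fit).

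The difference was called for 63 probe sets (0.29%) in all, among them 6 of the 30 genes. For Akr1c13, Car2 and LOC102552398 the vinclozolin lineage was higher in epithelium without passing the test and lower in whole prostate, where it passed. Akr1c13 read 35.3 and 42.5 against 104.8 and 118.8 in epithelium, and 81.9 and 88.8 against 34.0 and 36.0 in whole prostate. Bmp6 and Msmb, which are outside the 30, showed the same opposition, as did Semg1, Svs4 and Wfdc5. Semg1 measured 0.56 ± 0.12 in epithelium and -0.80 in whole prostate (adjusted p of the difference 0.047, limma). Immediate early genes had a median of -0.04 in whole prostate against -0.18 in epithelium, and endoplasmic reticulum genes 0.17 against 0.13. The difference between these medians was not tested.

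**Figure D5:**
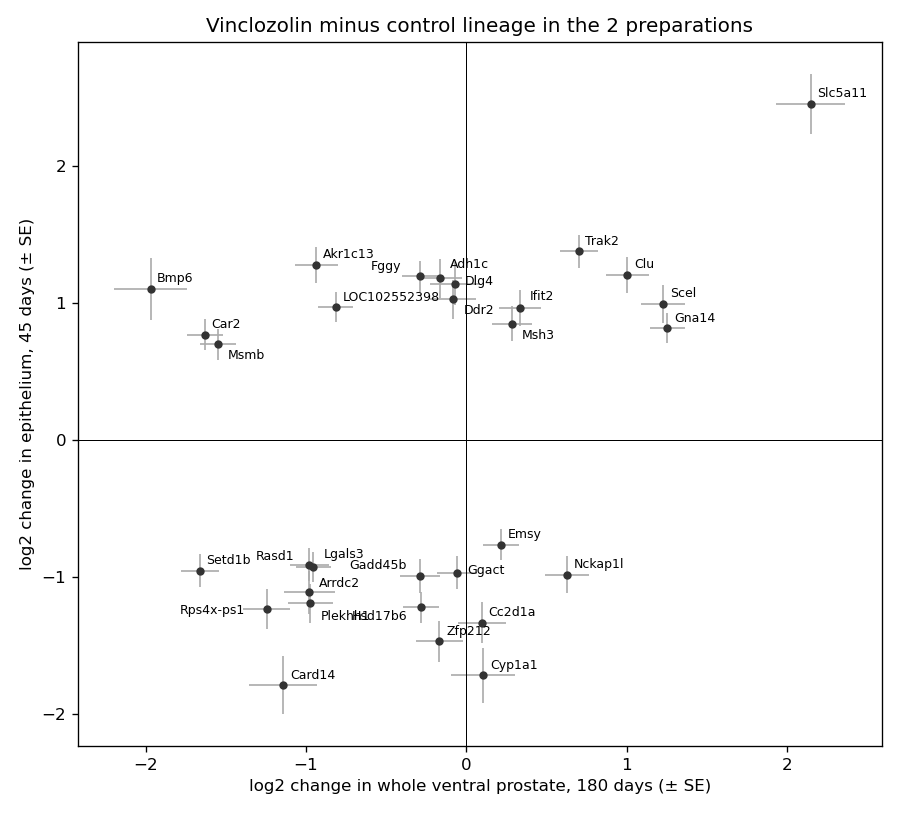
Log2 change (vinclozolin minus control lineage, ± fitted SE, 2 arrays in each group) in epithelium at 45 days against that in whole ventral prostate at 180 days, for 29 of the 30 genes of lowest p and for Msmb and Bmp6. Fam111a, at 1.77 and 6.61, lies outside the range drawn. Slc5a11, Clu, Scel and Gna14 are positive in both, and Bmp6, Car2 and Msmb are positive in epithelium and negative in whole prostate.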

How the data were processed

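RNA from rat ventral prostate was measured on 8 Affymetrix arrays, 4 of them of pooled epithelium. The deposited values are linear intensities, per the series value table, and were not negative. A trimmed mean that left out 2% of values at each end was 125.0 on each array, so arrays had been scaled to 1 level before deposit. The software and background correction are not given in the sources used here, and neither are detection calls. The number of arrays limits the precision.

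From the deposited intensities, 16 was added, log2 taken, and the 8 arrays quantile normalised. Control probe sets and those whose mean lay under the 30th percentile were left out. Fits used limma 3.58.1 in R 4.3.3, with 4 group means over all 8 arrays (4 residual and 2.621 prior degrees of freedom) and Benjamini-Hochberg adjustment over 21729 probe sets. Tables and figures used Python 3.11.15 and matplotlib 3.10.9. The fit was tested on simulated data.

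Among 31042 probe sets, 20826 carry 1 gene symbol in the platform annotation, 436 several and 9780 none. Of the first, 20764 were found in RefSeq by gene ID, and 0 symbols needed an update. Lists of 1452 entries had 1285 on the array (88.5%). Named genes are the called probe sets, the 15 of lowest p per direction with groups apart, the 6 largest changes per direction, up to 4 of lowest p and defining members per list, the 8 multi-probe genes per direction, and fixed control genes. One item is not reported here. The members, lists and rules were chosen with earlier results of these data known. Alternatives covered pseudocount, filter, normalisation, arrays in the fit, prior, array weights, replicate block and each array left out.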

Additional observations from a re-analysis of the deposited data

Results flagged for a closer look

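The values here are the probe sets named by the rules used here whose lineage effect differed between epithelium at 45 days and whole prostate at 180 days, by limma's test of the difference itself at an adjusted p under 0.05. Each value is the log2 change in epithelium minus that in whole prostate. The differences were positive for Bmp6 (3.08 and 2.01 on its 2 probe sets), Car2 (2.40 and 2.46), Wfdc5 (2.26), Msmb (2.25), Akr1c13 (2.21), Gstm6l (2.18), the proton pump subunit Atp6v1c2 (2.13), LOC102552398 (1.78), Svs4 (1.75), the muscle troponin Tnnc2 (1.64), probe set 1385146_at (1.56), Fggy (1.48) and Semg1 (1.36). They were negative for Fam111a (-4.84), the calcium binder Ocm (-2.62), Nckap1l (-1.61), the Fc receptor chain Fcer1g (-1.48) and the neuronal hydrolase Uchl1 (-1.33). Fam111a was higher in the vinclozolin lineage in both kinds of sample, so its difference is one of size. Nckap1l measured -0.98 in epithelium and 0.63 in whole prostate. Groups of 2 arrays are too small for a test of single outlying arrays.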

How the results depend on the processing

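The count of 2 calls in epithelium rests on the settings. It was 0 with a pseudocount of 1, with no filter on low values, with the epithelium arrays alone, with array weights and with any array left out. It was 1 with median centring, 66 with a pseudocount of 64, 23 with the filter at the 50th percentile and 205 with a trended robust prior. Nominal counts of probe sets in each direction stayed within 1.5 times of 1215 and 1256. At gene level, the shares that lists are set against fell outside that range with the epithelium arrays alone, at 3.31% higher and 3.66% lower against 5.2% and 5.61%. The 63 calls for the difference of effects became 40 with a pseudocount of 1, 262 with 64, 32 with no filter, 169 with the stricter filter and 540 with the trended prior, and 5 to 19 with 1 array left out. Leaving out whole prostate arrays was added after seeing the data. With the replicate block the counts were 0 and 5. Same-numbered epithelium pools correlated at only 0.029 in their deviations over all probe sets tested. One such value cannot decide whether they share a batch for some genes, and the labels name none. The summed spermatid genes were higher in pool 2 than in pool 1 in both groups (276.1 and 1231.9 in control, 1438.1 and 5738.7 in vinclozolin).

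Of 4159 values for 236 probe sets under alternatives, 51 turned sign, on probe sets that were not nominal, and the cause was not tested. With single epithelium arrays left out, 30 probe sets crossed 0. They were those of Acta2 (-0.27 to 0.010), Ahr (-0.054 to 0.37), Bmal1 (-0.22 to 0.11), Btrc (-0.030 to 0.19), C1qa (-0.27 to 0.17), Cd3g (-0.12 to 0.093), Cd68 (-0.25 to 0.011), Csf1r (-0.12 to 0.031), Cyp1b1 (-0.12 to 0.31), Dbp (-0.22 to 0.19), Dnmt3a (-0.36 to 0.59), Epcam (-0.20 to 0.082), Fos (-0.17 to 0.016), Pcna (-0.047 to 0.052), Sbp (-0.050 to 0.039), Adh1c (-0.56 to 0.20), Bcl2l1 (-0.090 to 0.30), Cc2d1a (-0.33 to 0.072), Ceacam1 (-0.071 to 0.72 and -0.10 to 0.17), Csnk1e (-0.074 to 0.083), Ddr2 (-0.17 to 0.35), Fas (-0.43 to 0.41), Grb10 (-0.15 to 0.54 and -0.032 to 0.56), Nkd1 (-0.66 to 0.49), Pgk1 (-0.34 to 0.15), Plekhh1 (-0.057 to 0.14), Smad7 (-0.40 to 0.34) and Trak2 (-0.076 to 0.35). Where a gene has several probe sets, the range is that of the probe set that crossed 0, which is not always the one described. With a pseudocount of 1 Fas was 0.13 and Smad7 0.0065. With values as deposited Fas was 0.041, Cd3g 0.022 and Pcna -0.0061, and with median centring Fas was 0.011, Pcna -0.036 and Plekhh1 -0.0055. Of 864 list medians, 68 turned sign, but 0 among the 8 lists with an absolute median of at least 0.15. Without array files, signal over background could not be examined, and intensities under 16 are the least certain.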

Other observations

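Enzymes of DNA and histone modification were nominally higher for 2 of 37 genes and lower for 5 (0 to 3 with each pool left out), with a median of -0.01. Hdac2, a histone deacetylase, read 269.3 and 321.1 in the control pools and 460.9 and 445.6 in the vinclozolin pools, a change of 0.62 ± 0.12. Hdac6 measured 1.00 ± 0.33 and Hdac11 -0.87 ± 0.29, both from low intensities. With each pool left out they ranged from 0.63 to 1.39 and from -1.29 to -0.46. The maintenance DNA methyltransferase Dnmt1 measured -0.22 ± 0.15 and was not nominal. Its deposited values overlapped between the groups (111.4 and 91.0 against 92.1 and 82.4), while its normalised values did not. The de novo enzyme Dnmt3a measured 0.41 ± 0.25 and 0.11 ± 0.31 on its 2 probe sets. Imprinted genes had 1 of 19 in each direction, Igf2 (0.30 ± 0.12) and Grb10 (-0.43 ± 0.17, and -0.66 to -0.21 with each pool left out). The other 2 probe sets of Grb10 measured 0.26 and 0.30. The same pair were the nominal members of the IGF axis (1 in each direction of 14).

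Junction and adhesion genes had 25 of 36 negative, 2 nominal (0 to 4 with each pool left out), and a median of -0.12. Tjp3, a tight junction scaffold, read 79.9 and 69.0 in the control pools and 55.5 and 51.0 in the vinclozolin pools, and Cgn, cingulin, 157.1 and 170.9 against 136.8 and 118.2. In the Wnt pathway 1 of 35 was higher, the receptor Fzd4, at 0.58 ± 0.15 and at 0.18 ± 0.43 on its other probe set. The 3 lower (8.57%, against 5.61% of all genes) were Axin1, Nkd1 and Nkd2, at -0.47 ± 0.11, -0.58 ± 0.14 and -0.61 ± 0.24. The list had 17 positive members and a median of -0.02. Nkd2 never exceeded 30.2 units and ranged from -0.98 to -0.24 with each pool left out, and the other probe set of Nkd1 measured -0.08 ± 0.43. Calcium signalling had 1 of 35 higher and 2 lower, with the kinase Camkk1 at -0.61 ± 0.14. Among FGF and hedgehog genes, Fgf1 and Gli2, a hedgehog effector, were the only nominal members of 19. Fgf1 measured 0.47 ± 0.11 on its brightest probe set, but 0.22 and 0.14 on its others. Gli2 measured -0.84 ± 0.29, from low intensities (27.5 and 12.8 against 2.7 and 3.4).

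Carbonic anhydrases and the proton pump had 4 of 23 nominally higher (1 or 2 without each pool) and 2 lower, with Car3 at -0.61 ± 0.12 opposite to Car2. Zinc, citrate and inositol carriers had 2 of 19 higher, Slc5a11 and the zinc importer Slc39a10 (0.52 ± 0.13). Cholesterol and fatty acid synthesis had 2 of 30 higher, Acsl3 and Acsl1 (0.26 ± 0.11), although 20 of 30 were negative. Cell cycle inhibitors and D cyclins had 1 of 17 in each direction, Ccng1 (0.29 ± 0.11) and Ccng2 (-0.52 ± 0.14). Antigen presentation had 1 of 23 higher and 2 lower. Ciita, its transcriptional activator, was at -0.77 ± 0.21, from low intensities (30.3 and 15.6 against 6.9 and 5.2). Trafficking adaptors had 0 of 27 (1 to 3 higher without each pool). The other counts given here moved by at most 2 members with a pool left out.

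Among the other cell type lists, luminal and basal markers each had 1 nominally higher (of 19 and 16), and fibroblast markers 2 of 25 lower. Skeletal muscle had 1 of 19 higher and 2 lower, adipocytes 3 of 15 higher and 1 lower, and nerve 1 of 12 higher and 2 lower. Of the higher adipocyte members, Cfd never exceeded 12.1 units in epithelium and Adipoq 33.5. The markers Plin1 and Fabp4 measured -0.77 ± 0.36 and -0.17 ± 0.20. The adipocyte median was -0.01, and the sums overlapped, at 929 and 826 in the control pools against 898 and 738. Red cells and granulocytes had 1 of 6 in each direction, and B cells (6) and mast cells (8) had 0. These counts also moved by at most 2.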
